A study of Homo sapiens with 2 samples.

Results

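The genes described here encode nuclear subunits of the mitochondrial respiratory chain and ATP synthase, measured in VMRC-LCD, an established cell line from lung adenocarcinoma that shows neuroendocrine (NE) differentiation. They were picked out by the pattern of the gene symbol, a rule that uses no signal but was set with earlier results of these data known, and 79 of the 21448 rows of the array table matched, out of 17709 rows with 1 gene symbol. Of the 79 rows, 77 stand for subunits or for cytochrome c. The other 2 matched by spelling only, namely *NDUFV1-DT*, the divergent transcript beside *NDUFV1*, and *ATP5MF-PTCD1*, a read-through transcript. The cells were transfected with si-*DRAIC*2, siRNA no2 against the long non-coding RNA *DRAIC*, or with the negative control siRNA si-NC, each at 20 nmol/L for 72 h, and total RNA of each condition was hybridized to 1 Human Clariom S array. Since each condition has a single array, the differences cannot be set against a spread between replicates, and no test or p-value is possible. The second siRNA of the study, si-*DRAIC*1, was not measured on an array here.

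The respiratory chain passes electrons from NADH (complex I) and succinate (complex II) through coenzyme Q to complex III, then through cytochrome c to complex IV, which reduces oxygen. Complexes I, III and IV pump protons across the inner mitochondrial membrane, and ATP synthase (complex V) uses their return to make ATP. Most subunits come from nuclear genes and are imported, while a few core subunits come from mitochondrial DNA and are not analysed here.

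The deposited values are log2 signals, brought to a common distribution by quantile normalization, so a shift shared by every transcript would not show. Differences below are log2(si-*DRAIC*2 signal) − log2(si-NC signal), so 0 means equal signals. Over all rows they had a median of −0.011 and an SD of 0.38, and Pearson's r between the arrays was 0.994 across rows, which are not replicates. *DRAIC* itself was not analysed here, so the knockdown could not be checked on its target on these arrays. The paper reports lower *DRAIC* by RT-qPCR with either siRNA than with si-NC. Epithelial markers (*EPCAM*, *CDH1*, *KRT8* and *KRT18*) had signals of 12.66 to 16.17 in si-*DRAIC*2 and 12.28 to 16.10 in si-NC. Of the NE markers, *INSM1* had 13.43 in si-*DRAIC*2 and 13.91 in si-NC (difference −0.48), *CHGA* had 12.17 in si-*DRAIC*2 and 12.41 in si-NC (difference −0.25), and *SYP* had 8.55 in si-*DRAIC*2 and 8.46 in si-NC (difference 0.095). The NE markers thus went both ways, with *INSM1* and *CHGA* negative and *SYP* positive. The differences of *CHGA* and *SYP* were smaller in size than the SD over all rows (0.38), and that of *INSM1* was larger. A change of NE markers as a group was not tested. The lung adenocarcinoma markers were dim, with 6.42 in si-*DRAIC*2 and 5.98 in si-NC for *NKX2-1* and 3.06 in si-*DRAIC*2 and 3.64 in si-NC for *NAPSA*. The fibroblast markers went both ways, with 10.91 in si-*DRAIC*2 and 10.46 in si-NC for *LUM* (difference 0.46), 8.40 in si-*DRAIC*2 and 8.73 in si-NC for *COL1A2* (difference −0.32) and 5.13 in si-*DRAIC*2 and 5.25 in si-NC for *COL1A1* (difference −0.12). The 3 leukocyte markers ran from 5.02 to 11.23 in si-*DRAIC*2 and from 5.002 to 11.18 in si-NC, the 2 muscle markers from 5.67 to 10.38 in si-*DRAIC*2 and from 5.45 to 10.20 in si-NC, and the endothelial genes *PECAM1* and *CDH5* lay at or below 4.41 on both arrays. The cells were a culture of VMRC-LCD alone, and the source of the signals of these markers was not tested.

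Most respiratory chain genes had a slightly higher signal in si-*DRAIC*2 than in si-NC, and few differed strongly. The median log2 signal was 12.68 in si-*DRAIC*2 (lowest 2.83, highest 16.96) and 12.51 in si-NC (lowest 2.85, highest 16.93). The difference was above 0 in 67 of the 79 genes (84.8%), against 48.6% of all named rows and 49% of the named rows at or above the median signal of the arrays. The median difference of the 79 genes was 0.18, the middle 50% of them lay between 0.071 and 0.31, and all named rows had a median of −0.0097. In linear terms, 48 of the 79 genes were within 1.2-fold between the arrays. Most named rows lay within 1.2-fold as well, since 20.5% of them passed it upwards and 23.3% downwards. The count of 48 therefore does not set these genes apart from the table.

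At the threshold of 1.5-fold used in the study, 5 genes were higher in si-*DRAIC*2, 1 was lower and 73 lay within it. The background for this count is 4.99% of all named rows higher and 5.97% lower. At or above the median signal it is 3.62% higher and 4.77% lower. The share of genes past 1.5-fold upwards was thus near that of the table as a whole, and the share past it downwards was below that of the table. At 1.2-fold the directions parted further, with 28 genes higher in si-*DRAIC*2 and 3 lower. Of all named rows, 20.5% were higher and 23.3% lower at this threshold, and at or above the median signal 18.8% were higher and 21.1% lower. *NDUFA12* (1.49-fold higher) and *UQCRB* (1.47-fold higher) lay just inside the 1.5-fold threshold, and *NDUFA6* (1.58-fold higher) was the nearest gene outside it.

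**Figure D1:**
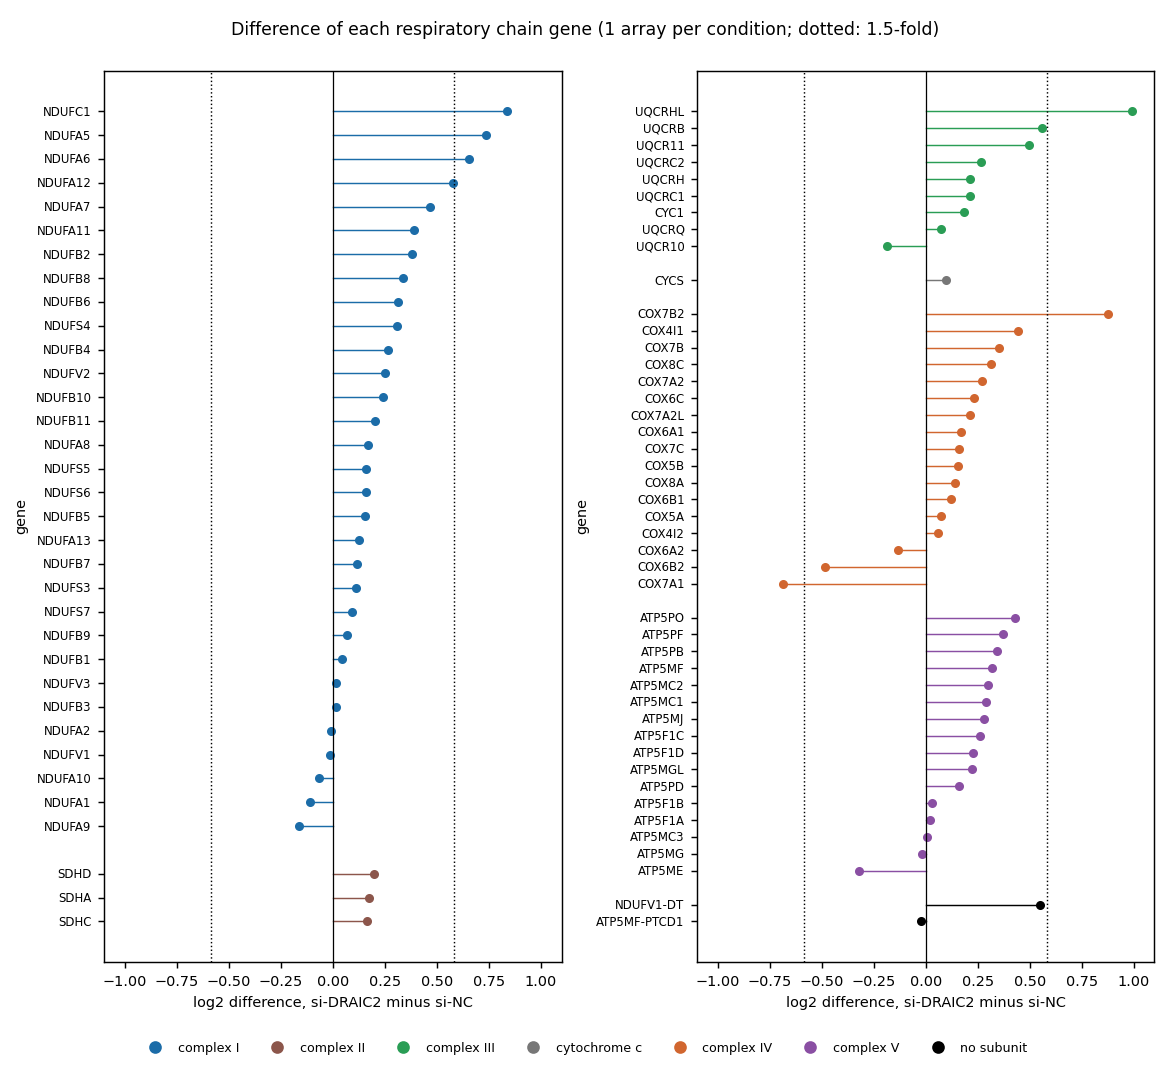
Log2 difference (si-*DRAIC*2 minus si-NC, x axis) of each of the 79 genes (y axis), grouped by complex and sorted within it, 1 array per condition, with dotted lines at 1.5-fold. Points lie right of 0 for 67 genes, and 5 pass the right and 1 passes the left dotted line.

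Bright and dim rows differed in how far they scattered, so each gene was also placed among the 500 named rows nearest to it in mean signal. The median gene of the respiratory chain lay at percentile 73.8 of the differences of its neighbours, 64 of the 79 lay above percentile 50, 14 lay above percentile 90 and 2 lay below percentile 10. Among genes with a mean log2 signal from 12 to below 14, 29 of 33 were above 0 with a median of 0.17, while the 1765 other named rows of this band had a median of 0.013 and 52.3% above 0. In the band from 14 upwards all 13 genes were above 0 with a median of 0.21, beside a median of 0.069 and 64.5% above 0 in 583 other rows. The excess was thus seen at several signal levels, although other rows of the brightest band leaned the same way. In the dimmest band, below 8, 5 of 8 genes were above 0 with a median of 0.14, and 48.1% of 9581 other rows were above 0.

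**Figure D2:**
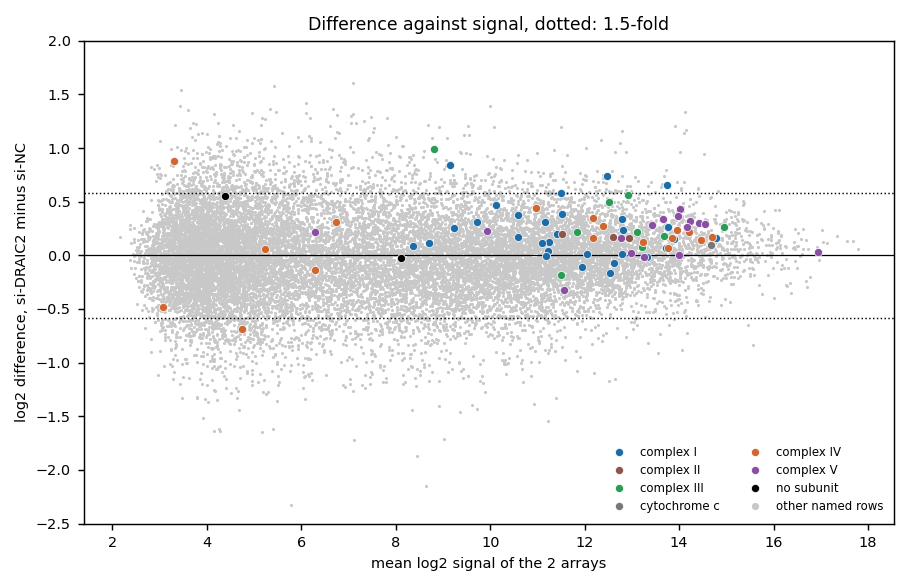
Log2 difference (si-*DRAIC*2 minus si-NC, y axis) against the mean log2 signal of both arrays (x axis) for the 79 genes, colored by complex, over the other named rows in gray; dotted lines mark 1.5-fold. Gray points center near 0 over most of the range and lean upwards from a signal of 14 (median 0.069). Colored points between signals of 8 and 16 lie mostly above 0.

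Nuclear genes of the respiratory chain are known targets of nuclear respiratory factor 1 (NRF1), of the ETS factor GABP and of YY1, so their promoters were searched for the core letters of these factors. A promoter here is a window of 250 bases before to 50 bases after a start, as given by RefSeq for GRCh38.p14, and windows were found for 63 of the 79 genes. On either strand, the NRF1 letters CGCANGCG were present in 36.5% of the 63 genes, against 17.02% of 14250 named genes with a window and 23.6% of the 7841 at or above the median signal. The ETS letters CCGGAAG stood in 28.6% of the 63 genes, against 16.6% of all named genes and 23.8% of those at or above the median signal. The YY1 letters AAGATGGC stood in 15.9%, against 4.73% of all named genes and 7.24% of those at or above the median signal. The ETS letters end in AAG and the YY1 letters begin with it, so matches of these can overlap. A gene with several windows was counted where any of them held the motif.

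The windows shown are those of the 3 genes with the largest excess in si-*DRAIC*2 among subunits other than restricted forms and retrocopies (*NDUFC1*, *NDUFA5* and *NDUFA6*), and that of *ATP5ME*, the lowest of these subunits. They are printed in the direction of the gene on GRCh38.p14, with motif matches in capitals. For *NDUFC1* (4 windows) and *NDUFA5* (3 windows) the window with most matches is shown.
NDUFC1, chr4:139301185-139301484, minus strand: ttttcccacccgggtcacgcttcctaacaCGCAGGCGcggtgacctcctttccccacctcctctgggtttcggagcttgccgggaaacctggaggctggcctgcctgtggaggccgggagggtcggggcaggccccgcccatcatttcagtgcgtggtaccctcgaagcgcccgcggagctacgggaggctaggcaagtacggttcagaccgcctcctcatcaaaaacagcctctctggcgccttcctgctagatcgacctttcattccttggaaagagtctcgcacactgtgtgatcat
NDUFA5, chr7:123557769-123558068, minus strand: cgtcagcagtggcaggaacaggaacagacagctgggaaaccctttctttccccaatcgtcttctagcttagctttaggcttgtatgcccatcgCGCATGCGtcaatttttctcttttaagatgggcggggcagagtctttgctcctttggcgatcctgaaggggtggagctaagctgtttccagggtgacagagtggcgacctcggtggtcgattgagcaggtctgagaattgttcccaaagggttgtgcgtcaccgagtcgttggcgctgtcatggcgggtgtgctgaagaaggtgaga
NDUFA6, chr22:42090723-42091022, minus strand: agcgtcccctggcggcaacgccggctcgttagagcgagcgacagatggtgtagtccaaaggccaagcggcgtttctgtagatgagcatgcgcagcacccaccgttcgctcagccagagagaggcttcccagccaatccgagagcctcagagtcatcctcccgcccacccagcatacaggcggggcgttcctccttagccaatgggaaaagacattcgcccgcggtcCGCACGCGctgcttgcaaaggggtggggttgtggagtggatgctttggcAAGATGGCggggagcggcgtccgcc
ATP5ME, chr4:674227-674526, minus strand: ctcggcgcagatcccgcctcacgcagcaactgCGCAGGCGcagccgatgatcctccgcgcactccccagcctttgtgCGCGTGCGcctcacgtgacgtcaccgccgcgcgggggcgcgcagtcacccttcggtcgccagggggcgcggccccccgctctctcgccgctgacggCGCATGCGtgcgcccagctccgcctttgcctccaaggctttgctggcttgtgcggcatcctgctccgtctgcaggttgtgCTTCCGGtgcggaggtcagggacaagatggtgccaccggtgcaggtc
Counted from the start, the NRF1 match began at −221 in *NDUFC1*, at −157 in *NDUFA5* and at −24 in *NDUFA6*, which also held the YY1 letters from base 26. *ATP5ME*, with a negative difference, held the NRF1 letters at −218, −173 and −77 and the ETS letters from base 4. The NRF1 match at −173 and the ETS match are on the opposite strand. Over the 63 genes, the median difference was 0.26 in the 23 with the NRF1 letters and 0.16 in the 40 without. It was 0.13 in the 18 genes with the ETS letters and 0.26 in the 45 without, and 0.34 in the 10 with the YY1 letters and 0.17 in the 53 without. In the 14250 named genes the medians with and without each motif lay between −0.039 and 0.015. These are matches of letters, and binding was not measured.

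Complex I, the NADH dehydrogenase and the entry point for most electrons, was represented by 31 genes. Of these 26 were above 0, 3 were more than 1.5-fold higher in si-*DRAIC*2 and none was more than 1.5-fold lower, with a median difference of 0.16. *NDUFC1*, an accessory subunit of the membrane arm, had a log2 signal of 9.57 in si-*DRAIC*2 and 8.74 in si-NC, a difference of 0.84 or 1.79-fold (percentile 99.4 among rows of similar signal). *NDUFA5*, an accessory subunit of the matrix arm close to the quinone-binding part, had 12.85 in si-*DRAIC*2 and 12.11 in si-NC (difference 0.74, 1.67-fold, percentile 99.2). *NDUFA6*, which holds the mitochondrial acyl carrier protein to the complex, had 14.07 in si-*DRAIC*2 and 13.42 in si-NC (difference 0.66, 1.58-fold, percentile 97.8). All 3 genes are accessory subunits, which surround the conserved catalytic core, but so are 27 of the 31 genes of complex I analysed here.

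*NDUFA12*, an accessory subunit of the matrix arm added late in assembly, had 11.79 in si-*DRAIC*2 and 11.21 in si-NC (difference 0.58, percentile 97.4). *NDUFA7*, *NDUFA11* and *NDUFB2* had differences of 0.47, 0.39 and 0.38. For the 4 genes of the conserved core analysed here, the differences were 0.25 for *NDUFV2*, 0.11 for *NDUFS3*, 0.091 for *NDUFS7*, which binds the last iron-sulfur cluster before coenzyme Q, and −0.013 for *NDUFV1*, which binds NADH and the flavin. The 27 accessory genes had a median of 0.17 and 23 of them were above 0. The lowest gene of complex I was *NDUFA9*, an accessory subunit near the quinone site, with 12.46 in si-*DRAIC*2 and 12.63 in si-NC (difference −0.16, percentile 25.8). *NDUFA1* and *NDUFA10* had −0.11 and −0.069. *NDUFAB1*, the acyl carrier protein that *NDUFA6* anchors, falls outside the symbol rule and had 12.51 in si-*DRAIC*2 and 12.35 in si-NC (difference 0.16). Other subunits of complex I were not analysed here.

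Complex II, succinate dehydrogenase, links the tricarboxylic acid cycle to the chain and pumps no protons. Its 3 measured genes lay close together. *SDHD*, a membrane anchor, had 11.62 in si-*DRAIC*2 and 11.42 in si-NC, *SDHA*, the flavoprotein that oxidizes succinate, had 12.68 in si-*DRAIC*2 and 12.51 in si-NC, and *SDHC*, the other anchor, had 13.03 in si-*DRAIC*2 and 12.86 in si-NC. The differences were 0.20, 0.17 and 0.17, all within 1.2-fold. *SDHB* was not analysed here.

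Complex III, which passes electrons from coenzyme Q to cytochrome c, had 9 genes with a median difference of 0.21, of which 8 were above 0. *UQCRHL* had the largest difference of all 79 genes, with 9.30 in si-*DRAIC*2 and 8.31 in si-NC (difference 0.99, 1.99-fold, percentile 99.4). It is a retrocopy of *UQCRH*, the hinge protein between cytochromes c1 and c, and the sequences are nearly identical, so their probes may not tell them apart. *UQCRH* itself had 13.21 in si-*DRAIC*2 and 12.99 in si-NC, a difference of 0.21. The small subunit *UQCRB*, which lies against cytochrome b, had 13.20 in si-*DRAIC*2 and 12.64 in si-NC (difference 0.56, percentile 97.0), and *UQCR11* had 12.76 in si-*DRAIC*2 and 12.26 in si-NC (difference 0.50, percentile 95.8). The core proteins *UQCRC2* and *UQCRC1* had differences of 0.27 and 0.21, and *CYC1*, which encodes the catalytic cytochrome c1, had 0.18. *UQCR10*, another small subunit, was the lowest with 11.40 in si-*DRAIC*2 and 11.59 in si-NC (difference −0.19). *CYCS*, the soluble cytochrome c that carries electrons onwards and triggers apoptosis when released, had 14.71 in si-*DRAIC*2 and 14.62 in si-NC (difference 0.095).

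Complex IV, cytochrome c oxidase, had 17 genes with a median difference of 0.16. Of these 14 were above 0, 1 was more than 1.5-fold higher in si-*DRAIC*2 and 1 more than 1.5-fold lower, and both of these were restricted forms with a dim signal. Among the forms found in most tissues, *COX4I1*, a regulatory subunit that binds ATP, had 11.20 in si-*DRAIC*2 and 10.75 in si-NC (difference 0.44, percentile 93.6). *COX7B* had 12.348 in si-*DRAIC*2 and 11.997 in si-NC (difference 0.35, percentile 88.8), and *COX7A2* had 0.27. *COX7A2L*, which helps to join complex III and complex IV into supercomplexes, had 0.21. The smallest differences among these forms were those of *COX5A* (0.072), *COX6B1* (0.12) and *COX8A* (0.14). The former NDUFA4, now named *COXFA4* and counted with complex IV, falls outside the symbol rule and had 14.90 in si-*DRAIC*2 and 14.56 in si-NC (difference 0.34).

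Several subunits exist in a common form and a form restricted to certain tissues or conditions. With the retrocopy *UQCRHL* and with *ATP5MGL*, for which no tissue or condition is given here, 9 pairs were measured. These 2 genes are counted with the restricted forms below, although they are not known here as such. The common forms all had signals of 10.75 or above on both arrays, and 8 of the 9 had a difference above 0. Of the restricted forms, those other than *UQCRHL* were below the median signal of all rows (6.99) and went both ways. *COX7B2*, known from testis, had 3.73 in si-*DRAIC*2 and 2.85 in si-NC (difference 0.88, 1.83-fold), and *COX6B2*, also known from testis, had 2.83 in si-*DRAIC*2 and 3.32 in si-NC (difference −0.49, 1.40-fold). *COX7A1*, the heart and muscle form, had 4.40 in si-*DRAIC*2 and 5.09 in si-NC (difference −0.69, 1.61-fold) and was the only gene more than 1.5-fold lower. *COX4I2*, a form of lung and of low oxygen, had 5.25 in si-*DRAIC*2 and 5.19 in si-NC (difference 0.058), and *COX6A2*, a muscle form, had 6.22 in si-*DRAIC*2 and 6.35 in si-NC (difference −0.13). *COX8C* had 0.31, *ATP5MGL* 0.22 and *COXFA4L2*, outside the symbol rule, −0.33. With 32 added to both linear signals, neither *COX7B2* (0.21) nor *COX7A1* (−0.31) passed 1.5-fold. Without the restricted forms and the rows that are no subunits, 61 of 69 genes were above 0, the median was 0.18, 3 genes were more than 1.5-fold higher and none lower.

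**Figure D3:**
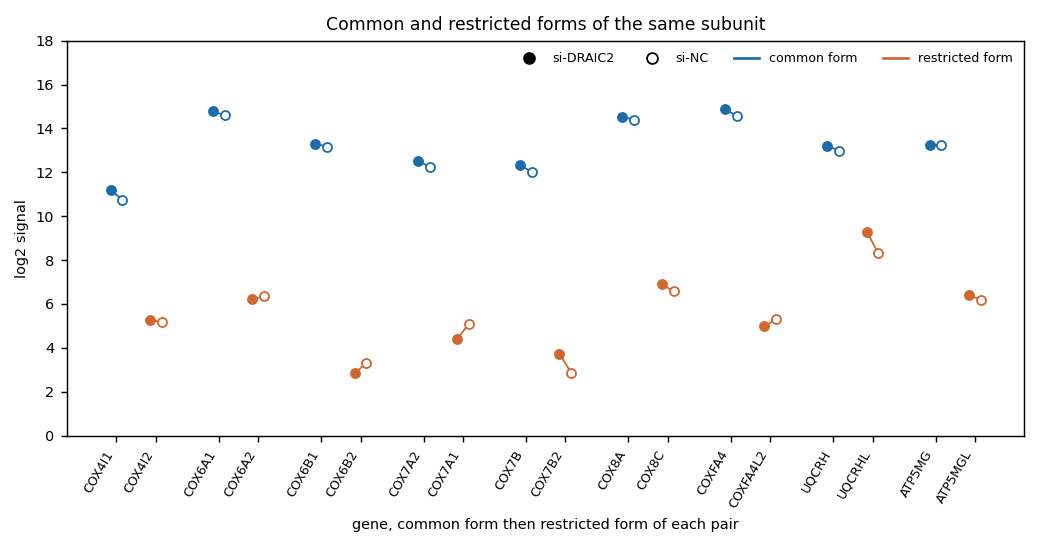
Log2 signal (y axis) in si-*DRAIC*2 (filled) and si-NC (open) of the common form (blue) and the restricted form (orange) of 9 subunits, 1 array per condition. The retrocopy *UQCRHL* and *ATP5MGL* are drawn with the restricted forms. Heights are not comparable between genes, since each has its own probes; the filled point is clearly above the open one in *COX7B2* and *UQCRHL* and below it in *COX7A1* and *COX6B2*.

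Complex V, ATP synthase, had 16 genes with a median difference of 0.24, of which 14 were above 0 and none passed 1.5-fold. The genes of the peripheral stalk, which holds the catalytic head still, were all above 0. *ATP5PO* had 14.23 in si-*DRAIC*2 and 13.80 in si-NC (difference 0.43, percentile 94.0), *ATP5PF* had 0.37, *ATP5PB* 0.34 and *ATP5PD* 0.16. In the catalytic F1 head, the 4 measured genes had a median of 0.13. *ATP5F1A* and *ATP5F1B*, which encode the alpha and beta subunits that form the catalytic sites, had differences of only 0.018 and 0.029, with 16.96 in si-*DRAIC*2 and 16.93 in si-NC for *ATP5F1B*, whereas *ATP5F1C* and *ATP5F1D* of the central stalk had 0.26 and 0.23. The 12 genes outside F1 had a median of 0.28.

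The proton-driven ring of ATP synthase is made of the c subunit, whose 3 genes encode the same mature protein. *ATP5MC2* had 14.57 in si-*DRAIC*2 and 14.27 in si-NC (difference 0.30), *ATP5MC1* had 14.70 in si-*DRAIC*2 and 14.41 in si-NC (difference 0.29), and *ATP5MC3* had 14.0047 in si-*DRAIC*2 and 14.0004 in si-NC (difference 0.0043). The membrane subunits that join ATP synthase into dimers did not move alike. *ATP5ME* was the lowest gene of complex V with 11.40 in si-*DRAIC*2 and 11.72 in si-NC (difference −0.32, percentile 11.4), *ATP5MG* had −0.019, and *ATP5MF* and *ATP5MJ* had 0.32 and 0.28. *ATP5IF1*, the inhibitor of ATP synthase and no member, had 0.0024. *ATP5F1E*, *ATP5MK* and *UQCRFS1* of complex III were not analysed here. Of the rows that are no subunits, *NDUFV1-DT* had 4.66 in si-*DRAIC*2 and 4.11 in si-NC (difference 0.55) and *ATP5MF-PTCD1* had −0.022.

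Other families of large complexes lay in the same direction. The 74 mitochondrial ribosomal protein genes, which serve the translation of the subunits encoded in mitochondria, had a median difference of 0.18 with 55 above 0, 1 more than 1.5-fold higher and none lower. The 54 cytosolic ribosomal protein genes had a median of 0.15 with 48 above 0, and after a lowess of the difference on mean signal was subtracted, an alternative added after seeing the data, their median was 0.096. The 36 proteasome subunit genes had a median of 0.14 with 27 above 0, and their median was 0.097 after the same lowess. That of the mitochondrial ribosomal protein genes was then 0.17, and that of the respiratory chain genes 0.16. Among the cytosolic ribosomal protein genes and among the proteasome genes, 1 gene each was more than 1.5-fold higher and none lower. The differences between the families were not tested, so the excess cannot be called particular to the respiratory chain. Respiratory chain genes were short, with a median span of 8922 bases against 25923 for all named rows. Among other named rows at or above the median signal, those with a span under 10000 bases had a median difference of −0.012 with 48.4% above 0, and those with a longer span −0.0086 with 48.8% above 0. The respiratory chain genes were not split by span, and a part of span in their differences was not tested.

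**Figure D4:**
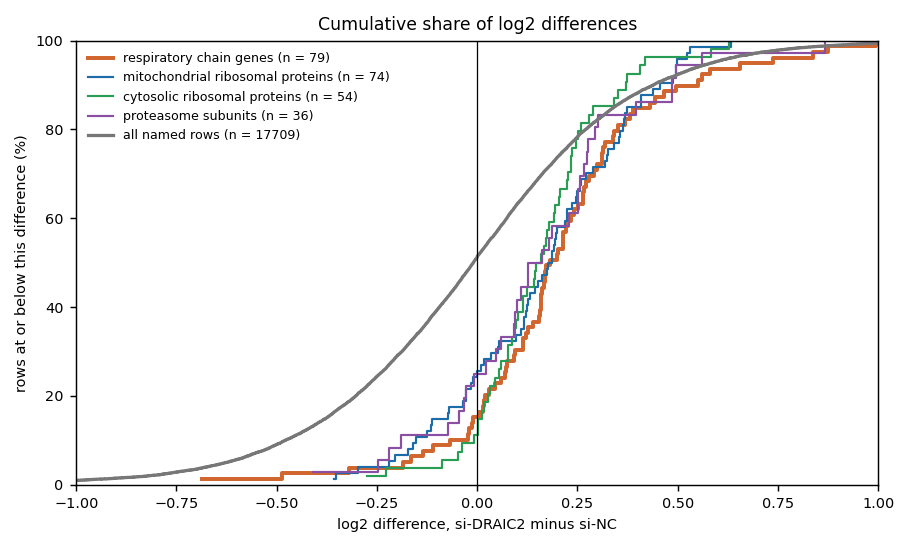
Cumulative share of rows (y axis, percent) at or below a log2 difference (si-*DRAIC*2 minus si-NC, x axis) for respiratory chain genes, 3 other families and all named rows. The curves of the 4 families lie close together, right of the curve of all named rows in the lower and middle part of the range, and meet or cross it at the upper end.

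Other mitochondrial genes were grouped by role, and no difference between these lists and the respiratory chain genes was tested. Of 17 assembly factors of complex I, which build the complex but do not stay in it, 9 were above 0 with a median of 0.16, and 1, *TMEM186*, was more than 1.5-fold higher (7.64 in si-*DRAIC*2 and 6.95 in si-NC). Of 34 measured assembly factors of complexes II to V, 19 were above 0 with a median of 0.029. *SDHAF4*, a factor for succinate dehydrogenase, had 8.29 in si-*DRAIC*2 and 7.48 in si-NC (1.76-fold higher), *ATPAF2*, which assists the F1 head, had 9.93 in si-*DRAIC*2 and 9.26 in si-NC (1.59-fold higher), and *LYRM7*, which inserts the iron-sulfur protein of complex III, had 11.78 in si-*DRAIC*2 and 12.48 in si-NC (1.62-fold lower, percentile 0.60). The 13 genes of coenzyme Q synthesis had a median of 0.099 and none passed 1.5-fold. Of 8 enzymes that feed electrons to coenzyme Q from other substrates, *CHDH*, choline dehydrogenase, was 2.10-fold lower, with 4.43 in si-*DRAIC*2 and 5.50 in si-NC, below the median signal, and the median was 0.27.

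The largest difference among bright genes of these lists was that of *SSBP1*, which coats single-stranded mitochondrial DNA during replication, with 13.13 in si-*DRAIC*2 and 12.17 in si-NC (1.95-fold higher, percentile 99.4). Of the 8 genes of mitochondrial DNA replication, 3 were above 0 with a median of −0.017. Of 11 measured regulators of mitochondrial biogenesis, 6 were above 0 with a median of 0.031. *GABPA*, the DNA-binding subunit of GABP, had 8.82 in si-*DRAIC*2 and 9.48 in si-NC (1.58-fold lower, percentile 4.60), and *POLRMT*, the mitochondrial RNA polymerase, had 8.01 in si-*DRAIC*2 and 7.42 in si-NC (difference 0.59, just past 1.5-fold). *NRF1* had 10.04 in si-*DRAIC*2 and 10.17 in si-NC (difference −0.13). In the tricarboxylic acid cycle 11 of 16 measured genes were above 0 with a median of 0.11, and *SUCLA2*, a subunit of succinyl-CoA ligase, had 9.14 in si-*DRAIC*2 and 9.84 in si-NC (1.63-fold lower).

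Of 27 genes of mitochondrial protein import, 20 were above 0 with a median of 0.067, and *GFER*, a sulfhydryl oxidase of the intermembrane space, was 1.89-fold lower with 5.84 in si-*DRAIC*2 and 6.76 in si-NC, below the median signal. Of 11 genes of cristae and the inner membrane, 7 were above 0 with a median of 0.11, and *APOO*, a component of the MICOS complex, was 1.65-fold higher with 8.70 in si-*DRAIC*2 and 7.97 in si-NC. Of 8 carriers and channels for ATP and phosphate, 4 were above 0 with a median of 0.055, and *VDAC3*, a channel of the outer membrane, had 13.79 in si-*DRAIC*2 and 13.20 in si-NC (difference 0.59, just past 1.5-fold). Of 6 mitochondrial antioxidant enzymes 4 were above 0 with a median of 0.13, and none passed 1.5-fold.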

How the data were processed

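VMRC-LCD cells transfected with si-*DRAIC*2 or si-NC were compared on 1 Human Clariom S array each. The deposited log2 signals were made by the authors with the SST-RMA algorithm of the Transcriptome Analysis Console, which corrected background, normalized by quantiles and summarized probes. RMA and this software are also named in the submitters' notes. The sources used here give neither their versions nor the genome build of the array. Both columns were used as deposited. Rows were named through the platform annotation, 3739 rows had no symbol, and all 17709 named rows matched RefSeq of GRCh38.p14 by gene identifier.

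Genes were selected by symbol pattern and grouped by complex. The genes, the other lists and the rule for named genes (all past 1.5-fold, the highest and lowest of each complex, all isoform pairs, and up to 3 genes per direction past 1.5-fold in other lists) were chosen with earlier results of these data known. Further genes named in the text and the promoter motifs were chosen after the values were seen, as were the alternatives for ribosomal and proteasome genes. No test was possible with 1 array per condition, and the number of arrays limits the precision. Promoter windows are from RefSeq, GRCh38.p14. The calculations were checked on simulated data. Tables were handled with pandas 2.3.3 and numpy 2.4.6 under Python 3.11.15, the lowess came from statsmodels 0.14.6, and figures were drawn with matplotlib 3.10.9.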

Additional observations from a re-analysis of the deposited data

How the results depend on the processing

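The excess of genes above 0 held under each scaling tried. It was 68 of 79 with differences centered on the median row, 65 after a lowess on mean signal (fraction 0.3) was subtracted, and 67 with 32 added to both linear signals, and the median of the 79 genes was 0.19, 0.16 and 0.17. Medians by complex moved by at most 0.05 under each alternative. The counts past the threshold depended on it. At 2-fold, 0 genes passed in either direction in any complex. The share of all named rows past 2-fold was not computed, so this count is no result about these genes. At 1.2-fold, 28 were higher (11 in complex I, 4 in complex III, 5 in complex IV and 7 in complex V) and 3 lower (2 in complex IV and 1 in complex V), against 5 higher and 1 lower at 1.5-fold. Without the restricted forms, 3 were higher and 0 lower, with 0 higher in complex III and 0 either way in complex IV. At or above the median signal, and with 32 added to both linear signals, 0 were lower and 0 were higher in complex IV. *NDUFA12* passed 1.5-fold after centering (0.59) and after the lowess (0.59). The cytosolic ribosomal protein genes had a median of 0.096 after the lowess, against 0.15 as deposited, an alternative chosen after seeing the data. The proteasome genes had 0.097 after it, against 0.14 as deposited. No paired analysis was possible because each condition has 1 array. Dim restricted forms are measured close to the lower end of the signal scale, which limits what their differences can show.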
